A study of Mus musculus with 4 samples.

Results

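The Wnt pathway was followed through 54 genes that encode Wnt ligands, their receptors and co-receptors, secreted inhibitors, the R-spondin axis, cytoplasmic effectors, TCF/LEF factors and planar polarity proteins. They were listed by gene symbol and role, with earlier results of these data known, and all 54 were found among the 52636 gene identifiers of the count files. mRNA was sequenced from tdTomato+ cells that were FACS-sorted from embryonic mouse kidneys (E12.5–E12.75) about 48 h after tamoxifen was first given, in 2 control and 2 *Eya1*cKO libraries of 5000 cells each. Control embryos carried the *Eya1*CreER allele, which gives a tamoxifen-inducible Cre, and the *R26-tdTomato* reporter. *Eya1*cKO embryos carried these alleles and floxed *Eya1* (*Eya1* fl/fl) as well. Both genotypes therefore received tamoxifen and carried *Eya1*CreER, and only cells in which CreER had been active were collected. The text of the paper does not describe how *Eya1*CreER was made. The libraries of a genotype were made from different portions of cells that had been pooled across embryos and sorted at one time. The study calls them biological replicates, and *P* values here measure the spread between these libraries, which may be technical.

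Wnt proteins are secreted lipid-modified ligands that bind Frizzled receptors together with Lrp5 or Lrp6 and thereby stabilise β-catenin, which then acts with TCF/LEF factors on transcription. In the developing kidney, Wnt9b from the ureteric bud acts on the nephron progenitors around it, and Wnt4 is made by progenitors that commit to form an epithelial vesicle. Secreted Sfrp and Dkk proteins restrain the pathway outside the cell, whereas R-spondins act through Lgr receptors to keep the ligases Rnf43 and Znrf3 from removing Frizzled receptors.

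Reads counted on genes were between 35411905 and 37999342 in the control libraries and between 17457452 and 22239293 in the *Eya1*cKO libraries. The share of all recorded reads that lay on no gene was from 12.9% to 13.9% in the controls and from 20.9% to 22.7% in *Eya1*cKO. Reads that were not aligned made up 6.32% to 6.69% against 12.7% to 12.9%, and 26486 to 27091 genes had a read against 20538 to 21455. The part of the reads on no gene and of those not aligned in the results was not tested, whereas depth was, by thinning the control counts to the depth of *Eya1*cKO. There 5 members were lower and 3 higher in place of 7 and 6. Over all genes tested, 3.30% were then lower and 3.48% higher in place of 4.41% and 5.15%, so that the drop was not particular to the members. The deleted gene, *Eya1*, was read 6612 and 6420 times in the controls against 377 and 219 times in *Eya1*cKO (edgeR log2FC, the fitted log2 ratio of *Eya1*cKO over control, -3.60 ± 0.18 standard error, adjusted *P* = 1.95e-04). Nephron progenitor markers were present in the controls, and all 8 of them were lower in *Eya1*cKO with an adjusted *P* under 0.05, against 4.41% of all genes tested. Their summed level went from 1624–1654 to 320–357 CPM (read counts scaled to a common library size of 1e+06 after TMM normalization). The 8 include the deleted gene *Eya1* itself, and several others were named as lower by the study from the same samples, so their fall is not independent evidence. Markers of several other cell types were higher in *Eya1*cKO with an adjusted *P* under 0.05, against 5.15% of all genes tested. These were 5 of 7 renal stroma, 5 of 6 podocyte, 6 of 6 endothelial, 6 of 6 adrenal cortex and 6 of 6 sympathoadrenal genes. Of the 11 ureteric bud markers, 3 were lower and 1 was higher. The summed level of 7 renal stroma markers was from 1747 to 1753 CPM in the controls and from 3530 to 3541 in *Eya1*cKO, and that of 6 podocyte markers from 849 to 874 and from 2568 to 2648 CPM. The 6 endothelial markers summed to 536–548 and 918–985 CPM, the 6 adrenal cortex markers to 11.4–18.7 and 653–677 CPM, and the 6 sympathoadrenal markers to 3.07–3.44 and 342–376 CPM. The 8 blood markers summed to 37.2–38.4 CPM in the controls against 24.0–34.7 in *Eya1*cKO, and *Hba-a1* and *Hba-a2* had 0 reads, which is uncertain because reads of such near-identical copies can be set aside as not unique. In sorted bulk samples such as these, fewer cells of a type and less RNA per cell cannot be told apart, and the part of these marker shifts in the results for Wnt genes was not tested.

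Of the 54 members, 13 passed the test, 7 lower and 6 higher in *Eya1*cKO. The 7 that fell were the ligand *Wnt4*, the receptor *Fzd3*, the secreted inhibitor *Sfrp2*, the R-spondin *Rspo1*, the transcription factors *Lef1* and *Tcf7l1* and the polarity gene *Vangl2*. The 6 that rose were the receptor *Fzd5*, the co-receptor *Ror1*, the inhibitors *Sfrp1*, *Dkk2* and *Kremen1*, and the R-spondin receptor *Lgr4*. The genotype effect was fitted by edgeR's quasi-likelihood test over all 19041 genes that passed its filter on low counts, among them 50 members, and adjusted *P* values are those of Benjamini and Hochberg over all of these genes. Of all genes tested, 9.56% passed at 0.05, 4.41% lower and 5.15% higher. Every log2FC is given ± 1 standard error. Its median was -0.25 over the 50 members tested and 0.02 over all genes tested. By role, the median ran from -0.67 for the ligands to 0.21 for the planar polarity genes. In 21 of the 50 members both *Eya1*cKO libraries lay below both controls and in 12 both lay above, whereas 30.0% and 25.3% of all genes tested did so, 55.3% in either direction.

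The calls depended on which libraries were fitted. *Wnt4*, *Sfrp1*, *Sfrp2* and *Lgr4* passed under all 9 alternatives of normalization, filter, test, depth and replicate block that kept the 4 libraries. The other 9 called members all missed the threshold with the replicate number as a block, where 2 members were lower and 2 higher (1.38% and 1.88% of all genes), and for *Fzd5* and *Rspo1* this was the only such alternative (edgeR adjusted *P* = 0.0695 and 0.0573). None of the 54 passed when control 1 or control 2 was left out, where 0.0378% and 0.0328% of all genes were lower and 0.0709% and 0.0749% higher, and the spread then came from the *Eya1*cKO pair alone. Without *Eya1*cKO 1, 17 members were lower and 12 higher (14.8% and 18.7% of all genes), and without *Eya1*cKO 2, 22 and 14 (15.5% and 19.8%), including all 13 in both cases. In these fits the lone library of a genotype is assumed to vary like the pair of the other. Each of the 13 kept the sign of its log2 fold change with any library left out. With all 4 libraries, 7 members were lower and 6 higher with DESeq2's size factors (4.20% and 5.22% of all genes) and with the robust test (4.17% and 4.78%), and 6 and 6 with library totals alone (3.80% and 5.54%). With at least 10 reads required in every library they were 10 and 6 (7.64% and 7.84%), and with DESeq2's Wald test 11 and 9 (6.57% and 9.18%). They were 5 and 3 with control counts thinned to the depth of *Eya1*cKO (3.30% and 3.48%), 3 and 3 without the low-count filter (1.63% and 1.76%) and 3 and 3 with edgeR's legacy test (2.70% and 3.05%). The *Eya1*cKO libraries differed more from each other than the controls did, with a median ratio of the higher to the lower library of 1.32 against 1.06 in CPM over the members tested, and of 1.41 against 1.13 over all genes tested.

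**Figure D1:**
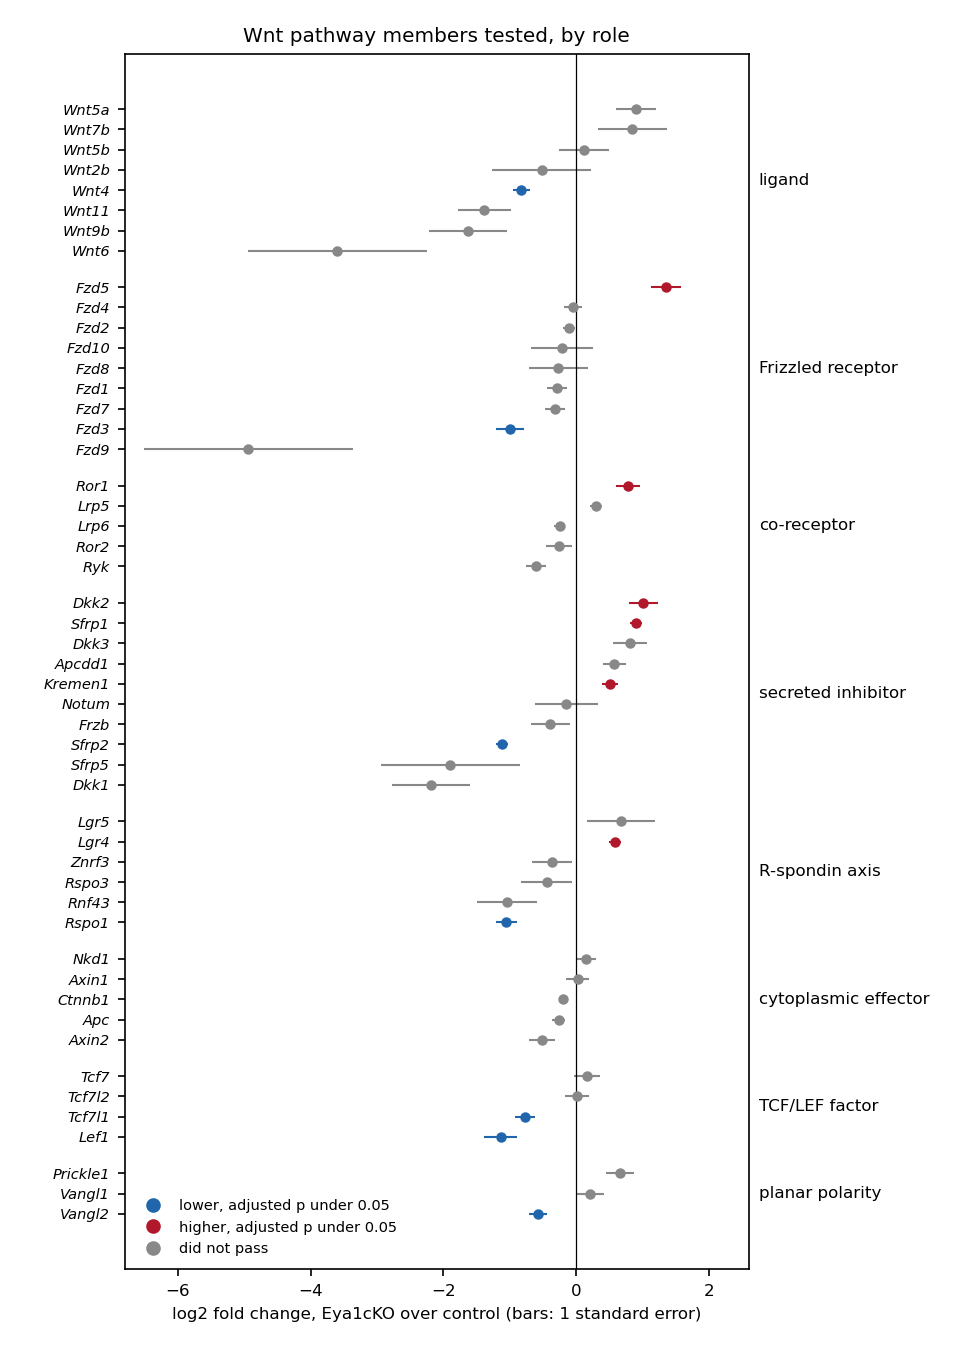
Log2 fold change of each of the 50 members tested (*Eya1*cKO over control), ordered by role, with bars of 1 standard error. Blue points are the 7 members lower and red points the 6 members higher in *Eya1*cKO with an adjusted *P* under 0.05, and the widest bars belong to *Fzd9* and *Wnt6*, which had few reads.

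**Figure D2:**
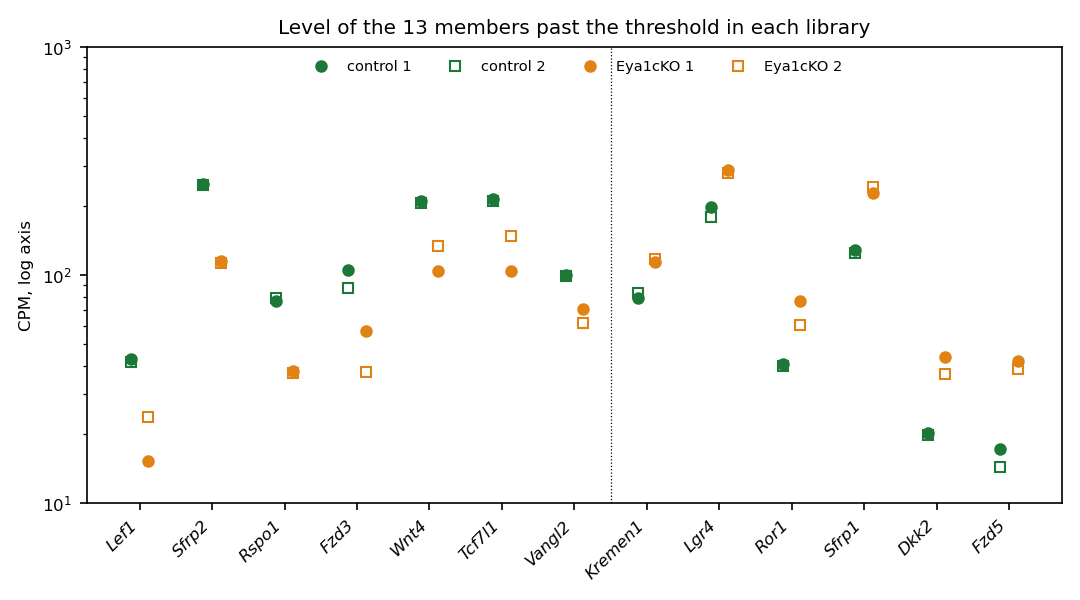
CPM of the 13 members past the threshold in each of the 4 libraries, on a log axis, with green for control and orange for *Eya1*cKO, filled for library 1 and open for library 2. The *Eya1*cKO libraries lie below both controls for the 7 genes left of the dotted line and above both controls for the 6 genes right of it, and the *Eya1*cKO pair lies apart most for *Lef1* and *Fzd3*.

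Promoter sequence was looked at because TCF/LEF factors, 2 of which fell, bind the core CTTTGA in DNA. The 250 bases before each RefSeq transcription start (GRCm38.p6) were searched for CTTTGA on both strands, where a match on the opposite strand reads TCAAAG. Windows were found for 33 of the 54 members, 44 in all, of which 7 (15.9%) held the core, against 13.8% of the 32851 windows of all genes. Of the called members with a window, 1 of 6 that fell and 1 of 4 that rose held it, namely *Lef1* and *Ror1*. The windows with a match in these members are shown with those of *Sfrp2* and *Lgr4*, which passed in opposite directions under all 9 alternatives and have no match. Capitals mark the core, and all 4 windows are on the plus strand and outside annotated exons. They lie at chr3:131156044-131156293 for *Lef1*, before a start inside the gene body, at chr4:100095541-100095790 for *Ror1*, at chr3:83766071-83766320 for *Sfrp2* and at chr2:109917397-109917646 for *Lgr4*.
Lef1: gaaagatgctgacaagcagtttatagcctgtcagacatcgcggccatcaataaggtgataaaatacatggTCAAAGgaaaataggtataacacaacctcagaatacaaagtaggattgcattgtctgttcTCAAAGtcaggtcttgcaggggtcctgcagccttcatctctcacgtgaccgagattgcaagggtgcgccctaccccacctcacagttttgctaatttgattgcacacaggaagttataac
Ror1: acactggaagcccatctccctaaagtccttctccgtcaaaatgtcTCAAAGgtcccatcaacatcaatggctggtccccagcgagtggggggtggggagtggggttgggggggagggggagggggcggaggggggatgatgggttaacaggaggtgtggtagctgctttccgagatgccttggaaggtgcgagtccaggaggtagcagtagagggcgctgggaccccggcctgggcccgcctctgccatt
Sfrp2: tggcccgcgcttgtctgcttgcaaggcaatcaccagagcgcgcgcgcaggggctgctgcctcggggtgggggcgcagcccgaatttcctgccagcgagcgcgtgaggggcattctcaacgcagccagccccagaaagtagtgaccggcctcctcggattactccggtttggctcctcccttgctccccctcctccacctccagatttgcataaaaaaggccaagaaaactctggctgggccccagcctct
Lgr4: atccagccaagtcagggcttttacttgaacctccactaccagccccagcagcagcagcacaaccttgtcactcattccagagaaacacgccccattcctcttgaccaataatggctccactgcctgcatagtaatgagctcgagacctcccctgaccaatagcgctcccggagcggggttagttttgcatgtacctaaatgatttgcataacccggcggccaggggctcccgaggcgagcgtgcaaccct
The *Lef1* window held 2 matches and the *Ror1* window 1. The other 3 of the 4 *Lef1* windows, among them those at its first starts, held none, and a gene with several windows has more chances of a match. A match describes these letters only and is not evidence of a bound site.

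*Wnt4*, the ligand of committing nephron progenitors, was the most abundant Wnt ligand per exonic length and fell in *Eya1*cKO. Its level was 211 and 208 CPM in control 1 and 2 and 104 and 134 CPM in *Eya1*cKO 1 and 2. Both mutant libraries were below both controls, and the log2FC was -0.83 ± 0.13 (edgeR adjusted *P* = 0.0109), between -1.02 and -0.66 with each library left out in turn. *Wnt4* (ENSMUSG00000036856) lies on chromosome 4 from 137277489 to 137299726 of GRCm38. On a scale of counts per exonic length (TPM), *Wnt4* made up 71.4% and 72.0% of the summed level of the 10 ligands in the controls and 50.1% and 72.0% in *Eya1*cKO 1 and 2. The summed ligand level was 269 and 262 TPM in the controls against 194 and 171 in *Eya1*cKO.

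The ligands of the ureteric bud were less abundant than *Wnt4*, and none passed. *Wnt11*, made at the bud tips, was at 23.6 and 19.1 CPM in the controls against 10.6 and 5.07 in *Eya1*cKO 1 and 2, with a log2FC of -1.38 ± 0.40 (edgeR adjusted *P* = 0.0796). With each library left out in turn, this log2FC lay between -2.08 and -1.02. *Wnt11* passed with DESeq2's Wald test and under no other alternative that kept the 4 libraries (adjusted *P* from 0.0284 to 0.133 over them). *Wnt9b*, the bud signal to the progenitors, was at 6.87 and 9.72 CPM in the controls against 2.48 and 2.96 in *Eya1*cKO (edgeR log2FC -1.63 ± 0.59, adjusted *P* = 0.129). For both genes the 2 mutant libraries lay below the 2 controls. *Wnt7b*, of the bud stalk, was on the opposite side, at 3.98 and 5.53 CPM in the controls against 10.6 and 6.10 in *Eya1*cKO (edgeR log2FC 0.85 ± 0.52, adjusted *P* = 0.326). The 11 ureteric bud markers, which include *Wnt9b* and *Wnt11*, summed to 456–467 CPM in the controls and 357–371 CPM in *Eya1*cKO. Among them *Ret*, *Calb1* and *Etv5* were lower and *Cdh16* higher with an adjusted *P* under 0.05, against 4.41% and 5.15% of all genes tested. The part of these markers in the values of the bud ligands was not tested.

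The ligands known mainly for β-catenin-independent signalling varied between the *Eya1*cKO libraries. *Wnt5a* had 29.1 and 29.5 CPM in the controls against 70.5 and 35.6 in *Eya1*cKO 1 and 2, and its log2FC of 0.90 ± 0.31 (edgeR adjusted *P* = 0.111) was 0.27 without *Eya1*cKO 1 and 1.25 without *Eya1*cKO 2. *Wnt5b* had 19.2 and 17.4 CPM in the controls against 26.6 and 11.5 in *Eya1*cKO, so that the genotypes overlapped. The other ligands were rare. *Wnt6* had 29 and 40 reads in the controls against 1 and 2 in *Eya1*cKO, a ratio of 12.8 in favour of the controls with an exact 95% interval of 4.19 to 63.4 that covers counting error only (edgeR adjusted *P* = 0.142). *Wnt2b* had 107 and 74 reads in the controls against 48 and 22 in *Eya1*cKO, which overlapped after scaling. *Wnt3*, with 2 and 1 reads in the controls against 0 and 3 in *Eya1*cKO, and *Wnt10a*, with 5 and 1 against 0 and 0, were too low to test.

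Among the Frizzled receptors, which bind the ligands at the cell surface, *Fzd3* fell and *Fzd5* rose, and the 4 most abundant ones did not pass. *Fzd3*, known also for axon guidance and planar polarity, was at 105 and 87.9 CPM in the controls against 57.0 and 37.5 in *Eya1*cKO. Its log2FC was -1.0002 ± 0.21 (edgeR adjusted *P* = 0.0301), a call that was also lost without the low-count filter and with the legacy test. *Fzd5* was at 17.3 and 14.4 CPM in the controls against 41.9 and 38.6 in *Eya1*cKO, with no overlap. This was a log2FC of 1.35 ± 0.23 (edgeR adjusted *P* = 0.0163), the largest rise of any member tested, and 17.8% of the exonic length of *Fzd5* (chromosome 1, 64730558 to 64737751) is shared with the antisense gene *Gm38058*. In the controls *Fzd2* was at 184 TPM, *Fzd1* at 154, *Fzd7* at 153 and *Fzd4* at 68.9, and these had log2 fold changes from -0.32 for *Fzd7* to -0.05 for *Fzd4*. The summed level of the 9 Frizzled genes with reads was 630 and 632 TPM in the controls against 513 and 614 in *Eya1*cKO, of which *Fzd5* took 1.39% ± 0.18 in the controls against 4.07% ± 0.77 in *Eya1*cKO (SD, n = 2 libraries each).

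The remaining Frizzled genes were low or unsteady. *Fzd10* had 17.8 and 17.2 CPM in the controls against 7.74 and 24.4 in *Eya1*cKO 1 and 2, and *Fzd8* had 18.1 and 14.1 against 18.6 and 6.67 CPM. Both therefore had mutant libraries that differed by a factor of 3.15 and 2.79, the largest such factors among the 42 members with at least 100 reads in every library. *Fzd9* had 61 and 59 reads in the controls against 0 and 2 in *Eya1*cKO, a ratio of 33.3 with an exact 95% counting interval of 9.02 to 278, and it did not pass (edgeR adjusted *P* = 0.106). *Wnt6*, *Fzd9* and *Sfrp5* had fewer than 10 reads in at least 1 library and reached the test through their control counts. *Fzd6* had 0 reads in every library, where 3 reads would have been 0.0801 to 0.171 CPM. *Fzd6* is expressed in many tissues, and whether its reads were lost in the counting was not tested, so that its 0 is not read as absence.

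**Figure D3:**
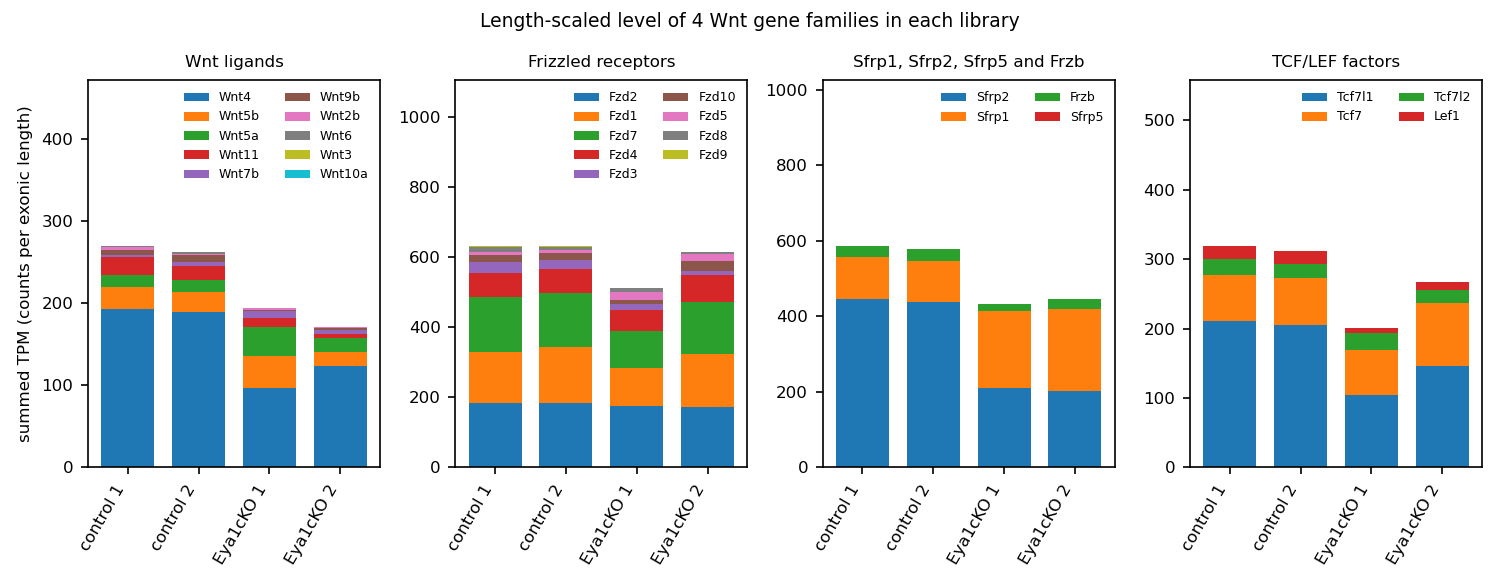
Summed TPM (counts per exonic length, scaled to each library) of the ligands, the Frizzled receptors, the Sfrp family and the TCF/LEF factors, stacked by gene, with 1 bar per library and an axis from 0 in each panel. *Wnt4* fills most of each ligand bar, *Sfrp1* and *Sfrp2* take near-equal parts only in the *Eya1*cKO bars, and *Tcf7l1* is the largest part of each TCF/LEF bar.

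Of the co-receptors, *Ror1* rose and the β-catenin co-receptors *Lrp5* and *Lrp6* did not pass. *Ror1*, a tyrosine kinase-like receptor of Wnt5a, was at 40.8 and 40.1 CPM in the controls against 76.8 and 60.7 in *Eya1*cKO (edgeR log2FC 0.78 ± 0.17, adjusted *P* = 0.0384). Its call was also lost without the low-count filter, with the legacy test and when the control counts were thinned to the depth of *Eya1*cKO (adjusted *P* from 0.0679 to 0.0848 in these fits, and from 0.00534 to 0.116 over all alternatives with 4 libraries). *Ror2*, its close relative, had 63.5 and 66.8 CPM in the controls against 44.9 and 66.3 in *Eya1*cKO 1 and 2, which overlapped. *Lrp5* was at 151 and 155 CPM in the controls against 189 and 189 in *Eya1*cKO (edgeR log2FC 0.30 ± 0.09, adjusted *P* = 0.0879). *Lrp6* was at 312 and 298 against 243 and 271 CPM (edgeR log2FC -0.25 ± 0.09, adjusted *P* = 0.116). The genotypes thus did not overlap for either gene, in opposite directions. *Ryk*, a Wnt receptor with a pseudokinase domain, was at 131 and 123 CPM in the controls against 72.3 and 96.8 in *Eya1*cKO and missed the threshold (edgeR log2FC -0.60 ± 0.15, adjusted *P* = 0.0550). It passed with at least 10 reads required in every library (0.0321) and with DESeq2's Wald test (0.0263), with adjusted *P* up to 0.139 over the alternatives with 4 libraries.

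The secreted frizzled-related proteins, which bind Wnt ligands outside the cell, changed in opposite directions. *Sfrp2* fell from 251 and 248 CPM in control 1 and 2 to 116 and 113 CPM in *Eya1*cKO 1 and 2 (edgeR log2FC -1.12 ± 0.09, adjusted *P* = 0.00135). *Sfrp1* rose from 129 and 125 CPM to 229 and 243 CPM (edgeR log2FC 0.90 ± 0.09, adjusted *P* = 0.00300). These were the smallest adjusted *P* values of any member, and in each gene the libraries of a genotype lay close together. Per exonic length, *Sfrp2* exceeded *Sfrp1* by a factor of 3.97 and 4.03 in the controls, and the ratio was 1.03 and 0.946 in *Eya1*cKO. The sum of *Sfrp1*, *Sfrp2*, *Sfrp5* and *Frzb* was 586 and 579 TPM in the controls against 433 and 447 in *Eya1*cKO. *Sfrp2* (chromosome 3, 83766321 to 83774316) shares 16.1% of its exonic length with the antisense gene *Gm26771*, and *Sfrp1* lies on chromosome 8 from 23411502 to 23449632. *Frzb* overlapped between genotypes, with 23.0 and 26.5 CPM in the controls against 15.2 and 23.5 in *Eya1*cKO, and *Sfrp5* had 18 and 30 against 3 and 4 reads.

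The Dickkopf inhibitors, of which Dkk1 and Dkk2 act on Lrp5 and Lrp6, also differed in their proportions between genotypes. *Dkk2* rose from 20.2 and 19.98 CPM in the controls to 43.5 and 36.8 CPM in *Eya1*cKO (edgeR log2FC 1.01 ± 0.22, adjusted *P* = 0.0340). *Dkk1* was at 18.4 and 10.8 CPM in the controls against 3.54 and 2.68 in *Eya1*cKO, and its log2FC of -2.19 ± 0.59 missed the threshold (edgeR adjusted *P* = 0.0637). It passed with DESeq2's Wald test and with at least 10 reads required in every library (adjusted *P* from 0.00115 to 0.106 over the alternatives with 4 libraries). *Dkk3* was at 14.4 and 16.9 CPM in the controls against 28.0 and 27.0 in *Eya1*cKO, without overlap (edgeR log2FC 0.81 ± 0.26, adjusted *P* = 0.0995). *Dkk1* made up 36.8% ± 9.67 of the summed TPM of the 3 Dickkopf genes in the controls against 6.28% ± 0.70 in *Eya1*cKO (SD, n = 2 libraries each). *Kremen1*, a receptor through which Dkk1 removes Lrp6 from the membrane, rose from 79.0 and 83.2 CPM to 114 and 117 CPM (edgeR log2FC 0.51 ± 0.12, adjusted *P* = 0.0404). The calls of both *Dkk2* and *Kremen1* were also lost without the low-count filter, with the legacy test and at thinned control depth.

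*Notum*, a carboxylesterase that removes the lipid of Wnt ligands, overlapped between genotypes, with 6.24 and 7.85 CPM in the controls against 6.82 and 5.81 in *Eya1*cKO. It shares 38.1% of its exonic length with antisense genes, the largest such share among the members. *Apcdd1*, a membrane-bound inhibitor and known target of the pathway, was at 43.0 and 45.4 CPM in the controls against 58.6 and 74.3 in *Eya1*cKO (edgeR log2FC 0.57 ± 0.18, adjusted *P* = 0.0915). Beside the rises of *Sfrp1*, *Dkk2* and *Kremen1*, 5 of the 7 renal stroma markers were also higher with an adjusted *P* under 0.05, against 5.15% of all genes tested. The part of these markers in the rises was not tested.

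In the R-spondin axis, which amplifies Wnt signalling, the ligand *Rspo1* fell and the receptor *Lgr4* rose. *Rspo1* went from 77.1 and 79.3 CPM in the controls to 38.1 and 37.3 CPM in *Eya1*cKO (edgeR log2FC -1.05 ± 0.15, adjusted *P* = 0.00953). *Lgr4* went from 199 and 181 CPM to 290 and 280 CPM (edgeR log2FC 0.59 ± 0.09, adjusted *P* = 0.0105). Both pairs of libraries were apart without overlap. *Rspo1* is on chromosome 4 from 124986430 to 125009099 and *Lgr4* on chromosome 2 from 109917647 to 110014257. *Rspo1* made up 85.2% ± 5.20 of the summed R-spondin TPM in the controls against 77.8% ± 4.31 in *Eya1*cKO (SD, n = 2 libraries each), while the sum itself was 186 and 175 TPM in the controls against 103 and 92.2 in *Eya1*cKO.

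*Rspo3* did not separate the genotypes, with 27.7 and 15.8 CPM in the controls against 17.3 and 14.1 in *Eya1*cKO. *Rspo2* had 6 and 0 reads in the controls and 119 and 0 reads in *Eya1*cKO 1 and 2, so that its reads came almost wholly from 1 library, and it was removed by the low-count filter. *Lgr5*, a target of the pathway as well as a receptor, was at 6.76 and 6.78 CPM in the controls against 6.73 and 16.0 in *Eya1*cKO. The ligase gene *Rnf43* was at 11.6 and 11.6 CPM in the controls against 6.86 and 4.10 in *Eya1*cKO (edgeR log2FC -1.04 ± 0.45, adjusted *P* = 0.182). Its partner *Znrf3* had 64.1 and 68.4 CPM in the controls against 33.0 and 73.8 in *Eya1*cKO 1 and 2, with mutant libraries on both sides of the controls.

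None of the 5 cytoplasmic effectors passed. *Ctnnb1*, which encodes β-catenin and was the most abundant member per exonic length (690 TPM in the controls), was at 951 and 927 CPM in the controls against 816 and 827 in *Eya1*cKO (edgeR log2FC -0.19 ± 0.06, adjusted *P* = 0.0777). Like *Ryk*, it passed with the filter of 10 reads in every library (0.0395) and with DESeq2's Wald test (0.0280), with adjusted *P* up to 0.120 over these alternatives. *Apc*, the scaffold of the β-catenin destruction complex, was at 242 and 219 against 189 and 194 CPM (edgeR log2FC -0.26 ± 0.09, adjusted *P* = 0.120). *Axin1*, a scaffold of the same complex, was at 127 and 143 against 160 and 111 CPM. *Axin2*, the feedback gene most often used as a readout of β-catenin activity, was at 56.6 and 61.7 CPM in the controls against 35.6 and 48.6 in *Eya1*cKO, below both controls (edgeR log2FC -0.51 ± 0.19, adjusted *P* = 0.138). *Nkd1*, an inhibitor that is also induced by the pathway, had 90.1 and 95.8 CPM in the controls against 114 and 90.1 in *Eya1*cKO, which overlapped.

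The 4 TCF/LEF factors, the DNA-binding partners of β-catenin, did not move together. *Lef1*, generally an activator, was at 42.7 and 41.7 CPM in the controls and fell to 15.3 and 23.9 CPM in *Eya1*cKO (edgeR log2FC -1.14 ± 0.25, adjusted *P* = 0.0377). *Tcf7l1*, generally a repressor, was at 216 and 212 CPM in the controls and fell to 104 and 148 CPM (edgeR log2FC -0.78 ± 0.15, adjusted *P* = 0.0255). Both calls were also lost without the low-count filter and with the legacy test, and that of *Lef1* at thinned control depth (adjusted *P* from 0.00870 to 0.116 for *Lef1* and from 9.8e-04 to 0.0715 for *Tcf7l1* over the alternatives with 4 libraries). *Tcf7* was at 45.6 and 46.1 CPM in the controls against 43.5 and 60.9 in *Eya1*cKO, and *Tcf7l2* was at 53.6 and 48.1 against 56.4 and 45.03 CPM. Neither separated the genotypes. *Tcf7l1* made up 66.0% ± 0.035 of the summed TCF/LEF level per exonic length in the controls against 53.4% ± 2.18 in *Eya1*cKO, and *Tcf7* 21.2% ± 0.48 and 33.0% ± 1.002 (SD, n = 2 libraries each). Antisense genes share 13.7% of the exonic length of *Lef1* and 4.56% of that of *Tcf7l1*.

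Of the planar polarity genes, which orient cells within a tissue plane, *Vangl2* fell from 99.97 and 98.9 CPM in the controls to 71.2 and 61.6 CPM in *Eya1*cKO (edgeR log2FC -0.57 ± 0.13, adjusted *P* = 0.0435). It was the call nearest to the threshold and was lost under 5 of the 9 alternatives with 4 libraries, among them scaling by library totals alone (adjusted *P* from 0.00982 to 0.130 over the 9). *Vangl1* overlapped between genotypes, at 32.4 and 30.6 against 40.2 and 31.9 CPM. *Prickle1* was at 52.3 and 60.6 CPM in the controls against 72.7 and 109 in *Eya1*cKO, above both controls (edgeR log2FC 0.66 ± 0.21, adjusted *P* = 0.0995).

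**Figure D4:**
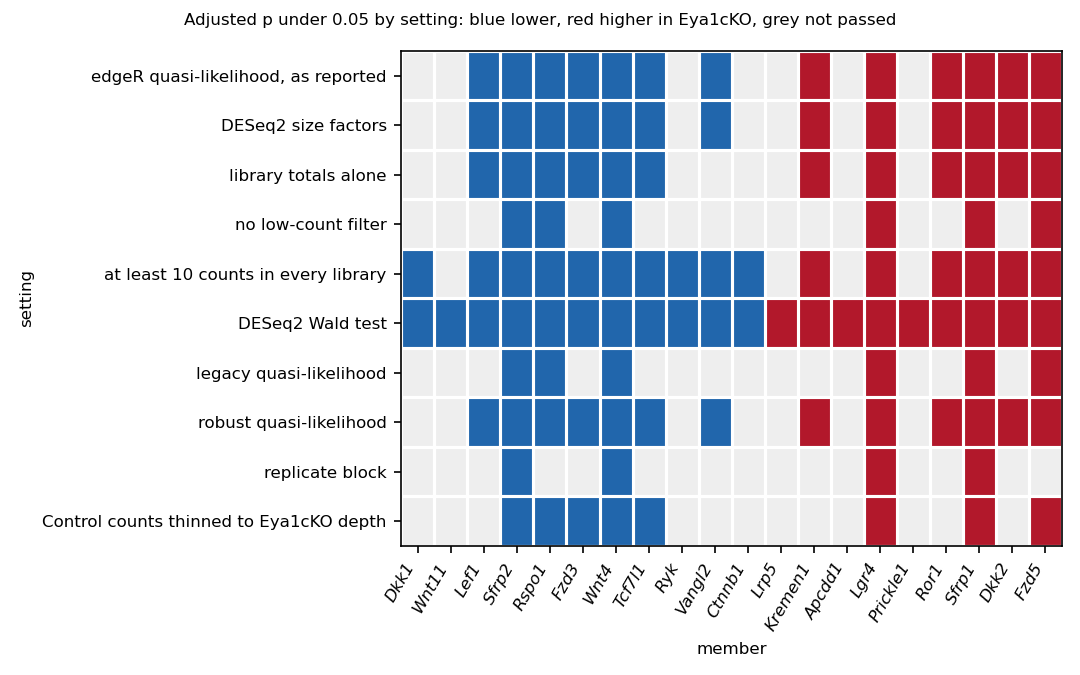
Calls at an adjusted *P* under 0.05 for the 20 members that passed under at least 1 of 10 settings with all 4 libraries, 1 column per member and 1 line per setting, with blue for lower, red for higher and grey for not passed in *Eya1*cKO. *Sfrp2*, *Wnt4*, *Lgr4* and *Sfrp1* are coloured in every line, and DESeq2's Wald test adds *Dkk1*, *Wnt11*, *Ryk*, *Ctnnb1*, *Lrp5*, *Apcdd1* and *Prickle1* to the 13.

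Beyond these members, 56 other genes of the pathway were listed, of which 48 could be tested, 4 were lower and 3 were higher in *Eya1*cKO, with a median log2FC of -0.07. The called genes were 14.6% of those tested, beside 9.56% of all genes (4.41% lower and 5.15% higher). *Sp5*, a direct β-catenin target that encodes a zinc-finger factor, had 340 and 423 reads in the controls against 21 and 0 in *Eya1*cKO (edgeR log2FC -4.32 ± 0.88, adjusted *P* = 0.0203). It had fewer than 10 reads in 1 library and reached the test through its control counts, and its call was lost with the legacy test and with the replicate block. The corepressor gene *Tle3*, the β-catenin cofactor *Bcl9* and the tankyrase *Tnks2* fell by 0.52, 0.41 and 0.33 on the log2 scale. The glypican *Gpc4*, the formin regulator *Daam2* and the *Bcl9* relative *Bcl9l* rose, with log2 fold changes of 1.38, 0.87 and 0.66. The machinery that secretes and relays Wnt signals did not pass, with a log2 fold change of 0.48 for *Wls* (edgeR adjusted *P* = 0.0853), of 0.14 for *Porcn*, of -0.54 for *Gsk3b* (edgeR adjusted *P* = 0.0549), and from -0.28 to 0.19 for *Dvl1*, *Dvl2* and *Dvl3*. *Celsr3* and *Wnt8a* had 0 reads in every library, and as for *Fzd6* a loss of reads in the counting was not tested.

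Genes known to respond to Wnt9b in nephron progenitors were lower throughout. All 6 of them fell with an adjusted *P* under 0.05 in edgeR, with log2 fold changes of -2.61 for *Uncx*, -2.59 for *Btbd11*, -2.21 for *Tafa5*, -2.08 for *Cited1*, -1.68 for *Amph* and -0.77 for *Pla2g7*. Some of these were named by the study from the same samples, so their direction is not independent evidence, and nephron progenitor markers fell beside them. *Cited1* is counted in both of these lists. Of 9 genes that mark induction of the nephron, 5 fell with an adjusted *P* under 0.05 in edgeR and none rose. For both lists the share of all genes tested that were lower was 4.41%. The induction genes that fell were *Fgf8* (-2.66), *Lhx1* (-1.76), *Bmp2* (-1.65), *Ccnd1* (-0.89) and *Jag1* (-0.60 on the log2 scale). Of these, *Fgf8* had 4 reads in *Eya1*cKO 2 and reached the test through its control counts. *Pax8*, *Dll1* and *Emx2* had log2 fold changes from -0.45 to -0.04 and did not pass. The remaining gene of the 9 also did not pass and is not reported here by name.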

How the data were processed

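The authors sequenced mRNA of 5000 sorted cells per library with a random-primed stranded kit, mapped the single-end reads to mm10 with HISAT2 and counted them on Ensembl release 90 genes with HTSeq; the deposited values are these raw counts. Tool versions and the strand setting of the counting are not given in the sources used here, so that genes with antisense partners are uncertain. The labels and the paper's methods count kidneys and litters differently. Symbols, coordinates and exonic lengths came from GENCODE M21 (GRCm38), for 52403 of 52636 identifiers, and promoter sequences from RefSeq (GRCm38.p6). Counts were tested in edgeR 4.0.16 under R 4.3.3 (filterByExpr with a minimum count of 10, TMM, glmQLFit with legacy = FALSE, glmQLFTest, Benjamini-Hochberg at 0.05) on genotype alone. The standard error of a log2 ratio was taken as its size divided by the root of the F statistic. TPM were computed from counts over union exonic length. Intervals of ratios at 1 to 3 reads are exact, in scipy 1.17.1. Alternatives included DESeq2 1.42.0, a replicate block, thinned control counts and each library left out. The fit was first run on simulated libraries in which 200 genes had known changes. The members and gene lists were chosen with earlier results of these data known. All 54 members were named, and of the other pathway genes up to 6 per direction past the threshold with the largest change, plus 6 core genes at any *P*; *Celsr3*, *Wnt8a* and the single ureteric bud, Schwann and blood markers were added after their values were seen. Marker lists covered nephron progenitor, ureteric bud, stroma, endothelial, podocyte, adrenal cortex, sympathoadrenal, Schwann and neural crest, and blood cells. A listed gene is not reported here by name.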

Additional observations from a re-analysis of the deposited data

How the results depend on the processing

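Each group has 2 libraries, and depth in *Eya1*cKO limits what could be seen of members below about 10 reads. The 13 called members also passed with DESeq2's size factors, the robust test, DESeq2's Wald test and at least 10 reads in every library, and 12 of them with library totals alone. The largest changes came with the settings that follow, and their cause was not tested. Counts below are given as lower and higher in *Eya1*cKO, for all genes (839 and 981 in the test reported), for the members (7 and 6) and for the other pathway genes (4 and 3). Without the low-count filter they were 507 and 548 for all genes, 3 and 3 for members, and 2 lower other genes. The legacy test gave 515 and 581 for all genes, 3 and 3 for members, and 2 lower other genes. DESeq2's Wald test gave 1294 and 1808 for all genes, 11 lower members, and 7 and 5 other genes. Thinned control counts gave 627 higher genes and 3 higher members.

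The deviations of the libraries numbered 1 had a correlation of 0.00769 across genes, so that libraries of the same number shared no pattern over all genes. This value cannot tell whether they were handled together. With the replicate block, 263 and 358 of all genes, 2 and 2 members and 0 and 1 of the other genes passed, the members being *Wnt4*, *Sfrp1*, *Sfrp2* and *Lgr4*, with 1 residual degree of freedom fewer.

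With each library left out in turn, calls ranged from 7 to 3482 lower and from 15 to 4443 higher over all genes, from 0 to 22 lower and from 0 to 14 higher among members, and from 0 to 17 lower and from 0 to 13 higher among the other genes. The low ends come from leaving out control 1 or control 2. *Axin1* had a log2 fold change of -0.30 without *Eya1*cKO 1 (edgeR adjusted *P* = 0.0358) and of 0.23 without *Eya1*cKO 2, against 0.02 with all libraries.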

Other observations

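Of 5 Schwann and neural crest markers 3 were tested, and *Sox10* was higher in *Eya1*cKO (0 and 5 reads in the controls against 83 and 75, edgeR adjusted *P* = 0.0351). *Sox10* passed the filter on low counts only through the *Eya1*cKO libraries, where it is high. Their summed level was 27.5 and 26.0 CPM in the controls against 32.1 and 28.6 in *Eya1*cKO. Of the blood markers, *Ptprc* and *Cd68* were tested and neither passed.

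Among the other pathway genes that did not pass, *Lgr6*, a relative of *Lgr4*, had 201 and 205 reads in the controls against 31 and 0 in *Eya1*cKO (log2FC -2.85, edgeR adjusted *P* = 0.100), and *Draxin*, a secreted guidance protein that also inhibits Wnt signalling, had 241 and 268 against 42 and 11 reads (log2FC -2.41, edgeR adjusted *P* = 0.0771). *Sostdc1*, a secreted antagonist of Wnt and BMP signals, had 227 and 235 reads in the controls and 230 and 320 in the shallower *Eya1*cKO libraries (log2FC 1.11, edgeR adjusted *P* = 0.159). *Lgr6* had fewer than 10 reads in 1 library and reached the test through its control counts. These 3 genes were chosen after their values were seen.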
